A study of Danio rerio with 4 samples.

Results

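Ribosome biogenesis and Myc genes were examined in sorted progenitor cells of zebrafish kidney marrow. The genes were chosen by symbol alone, by matching a fixed list of names of nucleolar ribosome assembly factors, RNA polymerase I components, Myc, Max and Mxd genes, with duplicate copies included. The rule found 74 of the 32434 genes in the count table, and all 74 had more than 5 reads summed over the 4 libraries, as did 17242 genes in all. By the role lists used, 60 of the 74 were placed in ribosome assembly and 9 in the Myc network, and 5 matched by letters only. Of the 9, mxd is in zebrafish the symbol of an Mx GTPase gene, so it too matched by letters only. The tested fish were tet2 mutant (tet2 m/m), a germline zinc finger nuclease line carrying a small deletion, and were compared with wild-type (tet2 wt/wt) fish, with 2 libraries of each genotype. tet2 encodes an enzyme that oxidises 5-methylcytosine in DNA, so the comparison asks how expression differs between marrow progenitors with and without its catalytic activity. The labels conflict on age, giving 4 months in library titles and count columns but 15 months in the descriptions of the same libraries. The study describes its RNA comparison as one of fish aged 4 months, and the conflict within the labels was not settled here. The cells were sorted by forward and side light scatter without surface markers, and the mutation was carried in every cell of the fish. The number of fish behind each library is not stated in what was read here.

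Ribosome biogenesis starts in the nucleolus, where RNA polymerase I transcribes the ribosomal RNA precursor. Small nucleolar ribonucleoproteins (snoRNPs) modify that precursor, and large sets of assembly factors fold and cut it into the 40S and 60S subunits. Myc proteins, paired with Max, are transcription factors known for driving many of these genes in growing cells, and Mxd proteins compete for Max and repress. Blood progenitors are known to be sensitive to lesions of this pathway, and npm1, which encodes the nucleolar chaperone nucleophosmin, is a recurrently mutated gene in human acute myeloid leukaemia.

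Libraries held between 8838603 and 10710913 counted reads, and values are given below as CPM, counts scaled to a common library size, set with edgeR's trimmed mean of M values (TMM). One library stood apart. Wild-type replicate 2 had a TMM factor of 0.858, against 1.03 to 1.07 in the other 3, with 10.8% of reads on globin genes (3.19 to 7.77% in the other 3) and 24.5% on ribosomal protein genes (19.9 to 22.0%). Results are therefore also given with either wild-type library left out. tet2 itself had 23.7 and 25.5 CPM in the mutants and 33.8 and 24.4 CPM in wild type (adjusted p = 0.683, edgeR), which does not check the labels, since reads are still counted from a gene with a small deletion. The 13 progenitor markers all passed the filter on low counts, although cmyb, a transcription factor of blood progenitors, had 496 and 608 CPM in the mutants against 1624 and 1592 CPM in wild type (adjusted p = 0.00372, edgeR). Over the 13 markers the median log2 fold change was -0.06, with 5 positive. By the adjusted p 0 were higher and 2 lower, where 2.98% and 2.95% of all tested genes were. The second was csf3r, with 117 and 25.4 CPM in the mutants against 181 and 59.5 CPM in wild type (adjusted p = 0.00869, edgeR). Its adjusted p was 0.612 in edgeR without a term for the replicate number and 0.0512 in DESeq2. Nothing in the labels says that the 2 libraries of a genotype came from separate fish, so p-values measure only the spread between these libraries.

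The 60 ribosome assembly genes lay slightly but broadly above wild type in the mutants, while almost none was separable from the spread on its own. The log2 fold change of mutant over wild type was positive for 54 of the 60 genes, or 90.0%, compared with 49.3% of all tested genes and 58.5% of the 5344 tested genes with a mean of at least 20 CPM. Its median was 0.29, a 1.22-fold difference, and the genes spanned from -0.41 to 0.70, compared with medians of -0.01 over all tested genes and 0.08 over those with at least 20 CPM. Both mutant libraries exceeded both wild-type libraries for 38 of the 60 genes, or 63.3%, and 1 gene showed the opposite arrangement. Over all tested genes, 23.1% had both mutants above and 21.7% had both below, and 31.5% of genes with at least 20 CPM had both above. In bulk RNA, a change in the share of a cell type and a change in RNA per cell cannot be told apart.

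Calls on single genes were few. A gene was called when its adjusted p in edgeR's quasi-likelihood test, with the replicate number as a block, was under 0.05 and its log2 fold change was beyond 1 in size. By this rule 0 of the 74 genes were higher in the mutants, where 1.8% of all tested genes were, and 1 of 74 was lower, where 1.9% were. With the adjusted p alone, 1 was higher and 1 was lower, against 2.98% and 2.95% of all tested genes. At an unadjusted p under 0.05 the counts were 9 higher and 3 lower, against 8.73% and 8.37% of all tested genes. The 9 higher genes were all among the 60 assembly genes, and 13.8% of genes with at least 20 CPM reached the same p, so the share of assembly genes was near the background. DESeq2 called 0 of the 74 at an adjusted p under 0.05, against 0.69% and 0.806% of all tested genes called higher and lower. At an unadjusted p under 0.05, DESeq2 had 4 of the 74 higher and 0 lower. Over all 17242 tested genes it had 629 higher and 577 lower at that p, and 376 of the 5344 genes with at least 20 CPM were higher. edgeR without the replicate block also called 0 of the 74 by the adjusted p, against 0.731% and 0.853% of all tested genes higher and lower.

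**Figure D1:**
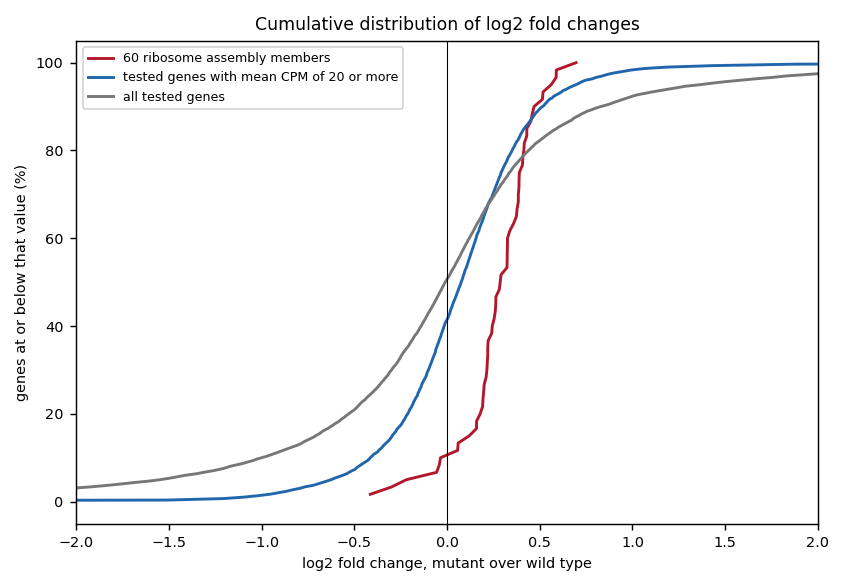
Cumulative share of genes (vertical axis, %) at or below each log2 fold change of mutant over wild type (horizontal axis) for the 60 ribosome assembly genes, the 5344 tested genes with a mean of 20 CPM or more and all 17242 tested genes. The curve of the assembly genes is shifted right, with 54 of 60 above 0, and ends at 0.70, below the fold threshold of 1.

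Transcription of ribosomal DNA was represented by 9 genes, and 0 of them were called in either direction. Among the 5 polymerase subunits, polr1a, the largest catalytic subunit, had 95.2 and 77.6 CPM in the mutants against 63.6 and 65.6 CPM in wild type. The log2 fold change was 0.41 ± 0.21 (SE), with an adjusted p of 0.304 (edgeR). Both mutant libraries stood above both wild-type libraries, but their own spread was wide. polr1b, the second largest subunit, had 38.2 and 35.6 CPM in the mutants and 30.9 and 32.9 CPM in wild type, again with no overlap (adjusted p = 0.694, edgeR). polr1c, which is shared with RNA polymerase III, had 37.2 and 37.6 CPM in the mutants and 25.5 and 32.2 CPM in wild type (adjusted p = 0.353, edgeR). POLR1D, also shared with polymerase III, had 36.9 and 39.1 CPM in the mutants and 26.7 and 36.3 CPM in wild type (adjusted p = 0.543, edgeR). These shared subunits did not overlap between genotypes either, and in both of them wild-type replicate 2 was the closer to the mutants. polr1e, a further subunit of the polymerase, did overlap, at 39.3 and 39.9 CPM in the mutants and 28.0 and 47.1 CPM in wild type.

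The architectural factor of the ribosomal DNA promoter showed no common direction across its copies. ubtf, which encodes upstream binding factor, had 145 and 198 CPM in the mutants and 152 and 145 CPM in wild type, so only mutant replicate 2 was high (log2 fold change 0.19 ± 0.23, adjusted p = 0.765, edgeR). ubtfl, a related copy, had 44.3 and 53.8 CPM in the mutants and 58.9 and 61.4 CPM in wild type, the only assembly gene with both mutants below both wild types (-0.30 ± 0.20, adjusted p = 0.496, edgeR). The symbol TCOF1, given to treacle, a nucleolar protein that works with polymerase I, had few reads in both copies. TCOF1 (1 of 2) had 2 and 4 reads in the mutants and 3 and 1 reads in wild type, and TCOF1 (2 of 2), whose identifier now carries the symbol prr36a, had 17 and 12 reads in the mutants and 16 and 16 in wild type. No fold is given for the first, and the second may not be a treacle gene.

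Box C/D snoRNPs carry out 2'-O-methylation of ribosomal RNA. The 4 matched genes of these particles and of snoRNP assembly were on the high side in the mutants. All 4 had a positive log2 fold change, with a median of 0.42, which was 0.22 with wild-type replicate 1 left out, again with 4 of 4 positive. This does not hold for every gene of the particle. nhp2l1a, whose product also binds box C/D snoRNAs, lies outside the matched names and was lower in the mutants (-1.86 ± 0.29), as given below. fbl, the methyltransferase fibrillarin, had 314 and 333 CPM in the mutants against 224 and 272 CPM in wild type (0.39 ± 0.25, adjusted p = 0.481, edgeR). nop58, a core scaffold protein of the particle, had 289.6 and 329 CPM in the mutants and 192 and 262 CPM in wild type (0.46 ± 0.25, adjusted p = 0.361, edgeR). In both genes, wild-type replicate 1 was the lowest library and the genotypes did not overlap. nop56, the other scaffold protein, had 576.5 and 686 CPM in the mutants and 463 and 593 CPM in wild type, where mutant replicate 1 was below wild-type replicate 2. nolc1, a nucleolar and Cajal body phosphoprotein that chaperones snoRNPs, had 146 and 153 CPM in the mutants and 106 and 110.5 CPM in wild type. Here the wild-type libraries lay together, and the log2 fold change was 0.47 ± 0.22 (adjusted p = 0.260, edgeR).

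The 23 genes of 40S assembly, most of them components of the small subunit processome that cleaves the precursor RNA, gave 0 calls. Their log2 fold changes were positive for 20 of 23, with a median of 0.25. Both mutants were above both wild types for 15 of 23, as for 23.1% of all tested genes and 31.5% of those with at least 20 CPM. Without wild-type replicate 1 the median was 0.086, with 15 of 23 positive. The largest difference was in rrp9, a protein bound to the U3 snoRNA, with 59.3 and 59.4 CPM in the mutants against 39.5 and 43.7 CPM in wild type. The mutants were nearly equal and well clear of wild type, yet the fold of 1.43 (95% interval 1.08 to 1.89) had an adjusted p of 0.144 (edgeR). Of the 2 most abundant by CPM, wdr43, a processome subunit, had 259.9 and 241 CPM in the mutants and 188 and 238 CPM in wild type (0.24 ± 0.25). rrp12, known in yeast for ribosomal subunit export, had 185 and 188 CPM in the mutants and 130 and 162 CPM in wild type (0.36 ± 0.23). Both were free of overlap, wdr43 by a small gap to wild-type replicate 2. At the low end UTP14C, whose yeast counterpart activates a processome helicase, had 83.8 and 76.7 CPM in the mutants and 77.5 and 89.6 CPM in wild type, with the genotypes interleaved. The other 19 genes ranged in log2 fold change from -0.04 to 0.43 and in adjusted p from 0.261 to 0.964.

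All 19 genes of the 60S assembly group had a positive log2 fold change, with a median of 0.29. Without wild-type replicate 1, 14 of 19 were positive and the median was 0.12. rrs1, a factor known in yeast for placing the 5S ribonucleoprotein into the pre-60S particle, had 89.4 and 71.6 CPM in the mutants against 46.0 and 53.2 CPM in wild type. It rose 1.62-fold in the mutants (95% interval 1.21 to 2.18, log2 fold change 0.70 ± 0.21, adjusted p = 0.0416, edgeR) and was the only one of the 74 genes called higher by the adjusted p. The call was narrow. The adjusted p was 0.130 in edgeR without the replicate block and 0.327 in DESeq2, and in edgeR it was 0.0985 to 0.314 when any library other than mutant replicate 2 was left out, while the log2 fold change stayed between 0.53 and 0.85 in every leave-one-out fit. nop2, a methyltransferase of large subunit ribosomal RNA long used as a proliferation antigen, had 140.4 and 141 CPM in the mutants and 82.5 and 106 CPM in wild type (0.59 ± 0.22, adjusted p = 0.122, edgeR). The mutants were alike and the wild types far apart. gnl3, or nucleostemin, a nucleolar GTPase of stem and progenitor cells, had 140.2 and 126 CPM in the mutants and 98.5 and 113 CPM in wild type (0.34 ± 0.22, adjusted p = 0.480, edgeR). RRP8, which methylates large subunit RNA in yeast and human cells, had the smallest difference of the group, at 42.5 and 44.6 CPM in the mutants and 35.2 and 49.5 CPM in wild type. Wild-type replicates 1 and 2 were there the lowest and the highest library. The other 15 genes had log2 fold changes of 0.18 to 0.59 and adjusted p-values of 0.0865 to 0.748.

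**Figure D2:**
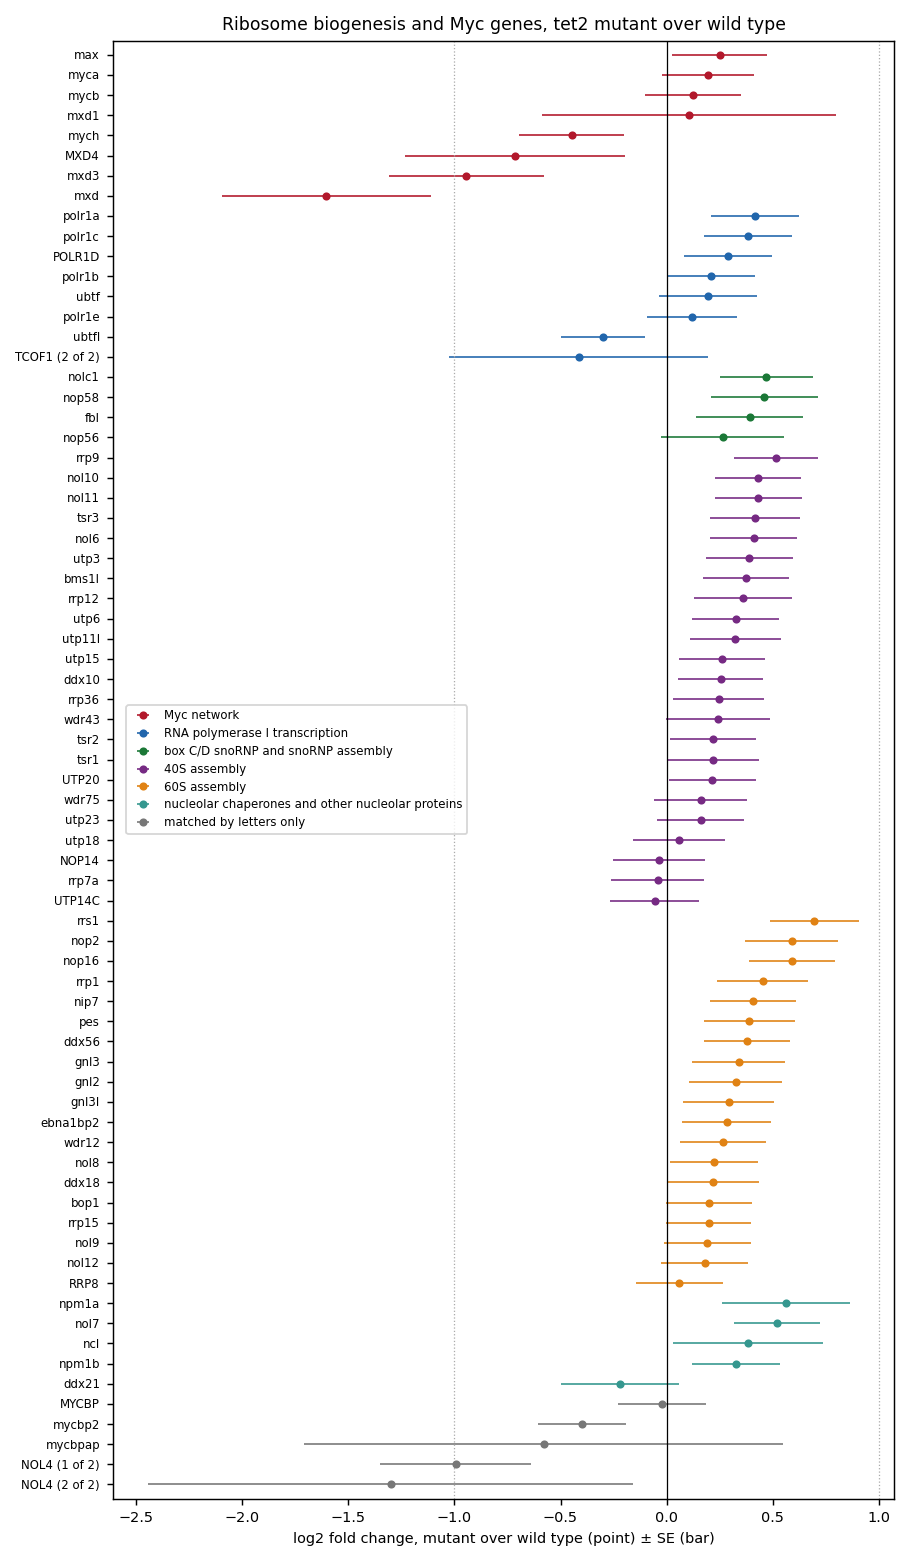
Log2 fold change of mutant over wild type (points) with its SE (bars) for each gene, by role, with dotted lines at the fold threshold of 1 in either direction. mycn and TCOF1 (1 of 2), with 4 or fewer reads in every library, are not drawn; all 19 of the 60S assembly genes lie right of 0, and mxd lies farthest left at -1.60.

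The abundant nucleolar proteins followed the same course, with wide errors. ncl, or nucleolin, which binds ribosomal RNA and ribosomal DNA chromatin, had 1518 and 1797 CPM in the mutants against 1151 and 1392 CPM in wild type (0.38 ± 0.35, adjusted p = 0.669, edgeR). npm1a, a zebrafish copy of nucleophosmin, had 792 and 846 CPM in the mutants and 479.6 and 641 CPM in wild type (0.56 ± 0.30). Its fold of 1.48 had a 95% interval of 0.962 to 2.27, which includes no difference. npm1b, the second copy, had 39.6 and 49.8 CPM in the mutants and 36.6 and 34.3 CPM in wild type (0.33 ± 0.21, adjusted p = 0.461, edgeR). In all 3 of these genes both mutants were above both wild types. nol7, a nucleolar protein named here after its values were seen because it completes the group, had 48.0 and 53.6 CPM in the mutants and 30.3 and 41.4 CPM in wild type. ddx21, a helicase that links polymerase I transcription with snoRNA function, was the exception, with 381 and 364 CPM in the mutants and 361 and 520 CPM in wild type (-0.22 ± 0.28). Its wild-type replicate 2 was high, and the other 3 libraries were close to each other.

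The size of these differences varied with the wild-type library. The median difference over the 60 assembly genes, in log2(CPM + 0.5), was 0.43 between mutant replicate 1 and wild-type replicate 1 and 0.49 between mutant replicate 2 and wild-type replicate 1. Against wild-type replicate 2 the medians were 0.15 for mutant replicate 1 and 0.19 for mutant replicate 2. The mutants differed from each other by a median of 0.07, whereas wild-type replicate 2 exceeded wild-type replicate 1 by 0.33, in 55 of 60 genes. The wild-type spread was thus larger than the distance of either mutant from the nearer wild type. Without wild-type replicate 1 the median log2 fold change was 0.13 with 43 of 60 genes positive, and without wild-type replicate 2 it was 0.44 with 57 of 60 positive. Without a mutant library it was 0.32 (mutant replicate 1 left out) and 0.26 (mutant replicate 2 left out).

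Scaling moved the wild-type libraries relative to each other by the same amount for every gene. With plain library totals in place of TMM, an alternative chosen after seeing the data, the median difference of wild-type replicate 2 from wild-type replicate 1 over the 60 genes was 0.02 in log2 CPM, a shift that follows from the scaling and is shared by all genes. Under library totals the median log2 fold change of the 60 genes was 0.42, with 57 positive and 51 not overlapping above wild type, where 28.2% of all tested genes were so placed. The median of all tested genes moved to 0.11 under library totals, so relative to all genes the assembly genes were about as far up as under TMM. Which scaling is nearer to the RNA content of the cells was not tested.

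**Figure D3:**
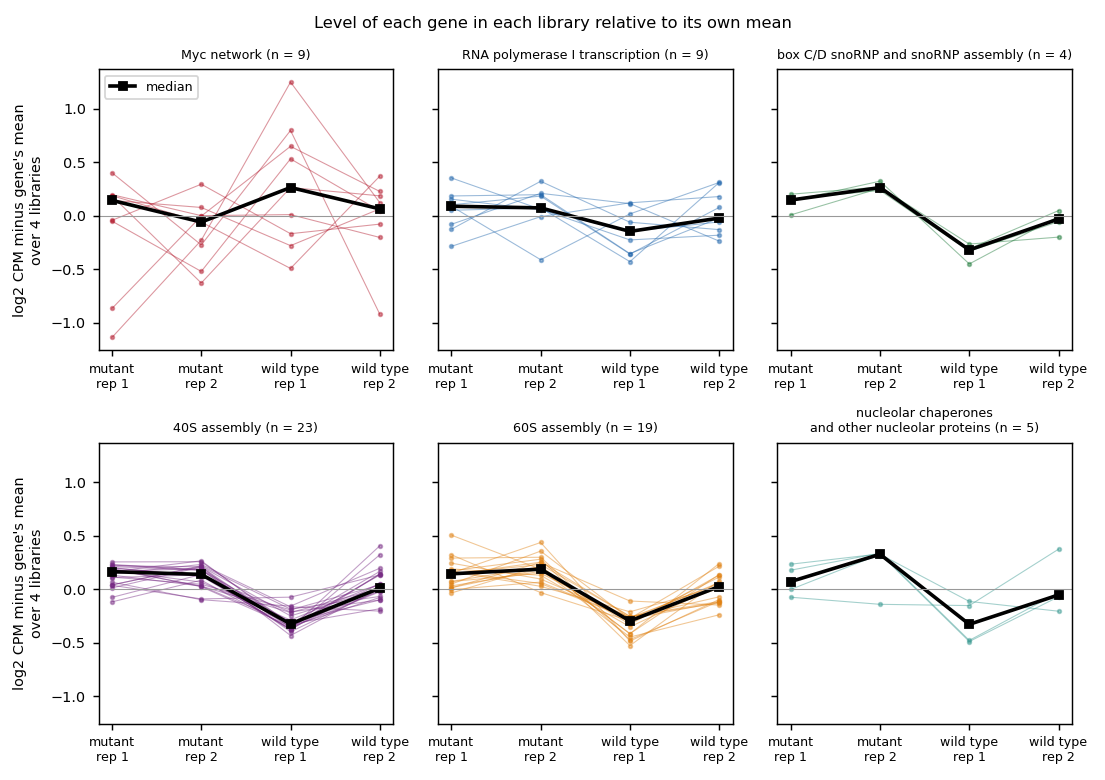
Log2 CPM of each gene in each library minus that gene's mean over the 4 libraries (vertical axis), by role, with a thin line joining the values of 1 gene and the black line their median. In the assembly groups the lowest median is that of wild-type replicate 1, wild-type replicate 2 lies between it and the mutants, and the Myc network has no common course.

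Genes of the same pathway outside the matched names were also mostly above wild type in the mutants. Under TMM this did not hold against wild-type replicate 2 alone. Of 96 other tested ribosome biogenesis genes, 73 had a positive log2 fold change and the median was 0.21. Beyond the fold threshold 1 was called higher and 1 lower, where 1.8% and 1.9% of all tested genes were, so calls were no more frequent than the background. exosc6, a subunit of the RNA exosome that trims ribosomal RNA precursors, rose, with 11.8 and 9.57 CPM in the mutants against 4.08 and 6.20 CPM in wild type (1.07 ± 0.31, adjusted p = 0.0311, edgeR). nhp2l1a, whose product binds the box C/D motif of snoRNAs and the U4 spliceosomal RNA, fell, with 2.76 and 9.75 CPM in the mutants against 17.9 and 22.8 CPM in wild type (-1.86 ± 0.29, adjusted p = 4.96e-05, edgeR). The exosc6 call was lost in DESeq2 (adjusted p = 0.531) and in edgeR without the block (0.148), and the nhp2l1a call was kept in DESeq2 (0.00724) but lost in edgeR without the block (0.0796). Against wild-type replicate 2 alone the median difference of these 96 genes was -0.02 for mutant replicate 1 and 0.01 for mutant replicate 2. Under TMM the higher values thus rested on wild-type replicate 1. Without that library the median log2 fold change of the 96 genes was 0.01, with 50 positive. Under library totals, with all 4 libraries, it was 0.34 with 88 of 96 positive, where the median of all tested genes was 0.11.

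Of 42 further genes of RNA polymerases I and III, 28 had a positive log2 fold change, with a median of 0.14. Without wild-type replicate 1 the median was -0.01 with 20 of 41 positive, and without wild-type replicate 2 it was 0.20 with 28 of 42 positive. With all 4 libraries 1 of the 42 was called higher and 0 lower, where 1.8% and 1.9% of all tested genes were, a share near the background. polr3gla, a copy of a polymerase III subunit, had 11.8 and 12.9 CPM in the mutants and 5.30 and 5.28 CPM in wild type (1.22 ± 0.29, adjusted p = 0.00716, edgeR). Replicates of each genotype were close to each other, but the adjusted p was 0.0623 in edgeR without the block and 0.286 in DESeq2.

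Ribosomal protein genes, whose products are the material that the assembly factors handle, did not follow the assembly genes. Of 82 tested genes, 7 had a positive log2 fold change under TMM, with a median of -0.15, and 0 were called beyond the fold threshold. The only call by the adjusted p was RPS19BP1, which matched by letters and encodes a binding partner of a ribosomal protein rather than a subunit protein. Mutant levels lay between the wild types, with median differences of 0.19 and 0.18 above wild-type replicate 1 and of -0.43 and -0.43 from wild-type replicate 2 for mutant replicates 1 and 2. The direction depended on the wild-type library, at a median of -0.48 with wild-type replicate 1 left out and 0.18 when wild-type replicate 2 was dropped. Under library totals the median was -0.02, with 38 of 82 positive. Wild-type replicate 2 exceeded wild-type replicate 1 in 82 of 82 of these genes under TMM, by a median of 0.61.

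**Figure D4:**
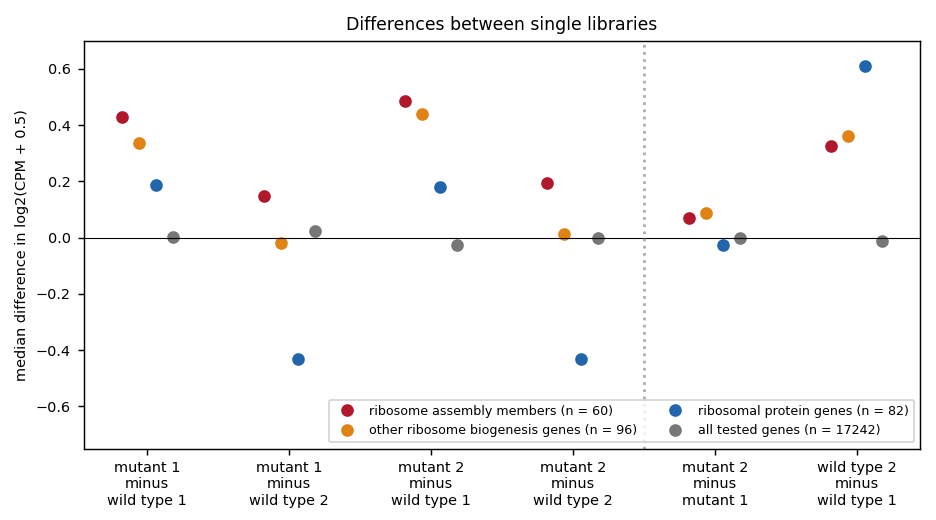
Median difference in log2(CPM + 0.5) between single libraries (vertical axis) for the 60 assembly genes, 96 other ribosome biogenesis genes, 82 ribosomal protein genes and all tested genes, with within-genotype pairs right of the dotted line. The assembly genes are positive in all 4 pairs of mutant and wild type, from 0.15 to 0.49, and by 0.33 between the wild types.

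None of the 4 Myc genes among the 74, nor max, passed the test in any fit that was run. myca, a zebrafish counterpart of mammalian MYC, had 141 and 123 CPM in the mutants and 124 and 107 CPM in wild type, with overlap between mutant replicate 2 and wild-type replicate 1. Its fold of 1.15 had a 95% interval of 0.842 to 1.56 (adjusted p = 0.742, edgeR). mycb, the second MYC copy, had 68.5 and 57.7 CPM in the mutants and 42.6 and 77.9 CPM in wild type, where the wild-type libraries enclosed both mutants (0.12 ± 0.23, adjusted p = 0.862, edgeR). mych, a further Myc family gene of fish, had 218 and 124 CPM in the mutants and 231 and 219 CPM in wild type. Mutant replicate 2 was low and mutant replicate 1 was level with wild type, and the log2 fold change was -0.45 ± 0.25 (adjusted p = 0.369, edgeR). mycn had 3 and 3 reads in the mutants and 1 and 2 reads in wild type, which is at or under a floor of 3 reads per library, so no fold is given. max, which encodes the partner of every Myc and Mxd protein, had 138 and 175 CPM in the mutants and 127 and 135 CPM in wild type (0.25 ± 0.22, adjusted p = 0.654, edgeR).

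The 4 genes with Mxd symbols were low in all libraries, and 3 of 4 had both mutants below both wild types, as did 21.7% of all tested genes. mxd1, mxd3 and MXD4 encode antagonists of Myc. The symbol mxd is in zebrafish that of an Mx GTPase gene, matched here by letters, so its values do not describe a Myc antagonist. mxd had 0.921 and 2.17 CPM in the mutants against 6.93 and 2.90 CPM in wild type, from 9 and 24 reads in the mutants and 68 and 22 reads in wild type. It fell in the mutants by the fitted test (log2 fold change -1.60 ± 0.49, 95% interval of the fold 0.164 to 0.661, adjusted p = 0.0480, edgeR) and was the only one of the 74 genes that met both the adjusted p and the fold threshold. Wild-type replicate 1 was the only high library, and without it the log2 fold change was -0.92 (adjusted p = 0.738, edgeR), while without mutant replicate 1 it was -1.20 (adjusted p = 0.216, edgeR). For mxd, DESeq2 gave an adjusted p = 0.559, and edgeR without the replicate block gave an adjusted p = 0.186. mxd3 had 2.46 and 4.88 CPM in the mutants and 7.95 and 5.81 CPM in wild type (-0.94 ± 0.36, adjusted p = 0.142, edgeR). MXD4 had 1.94 and 1.26 CPM in the mutants and 3.16 and 2.11 CPM in wild type (-0.71 ± 0.52, adjusted p = 0.548, edgeR). Both had no overlap between genotypes, by small gaps. mxd1 had 17 and 10 reads in the mutants and 24 and 3 reads in wild type, with no common direction.

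**Figure D5:**
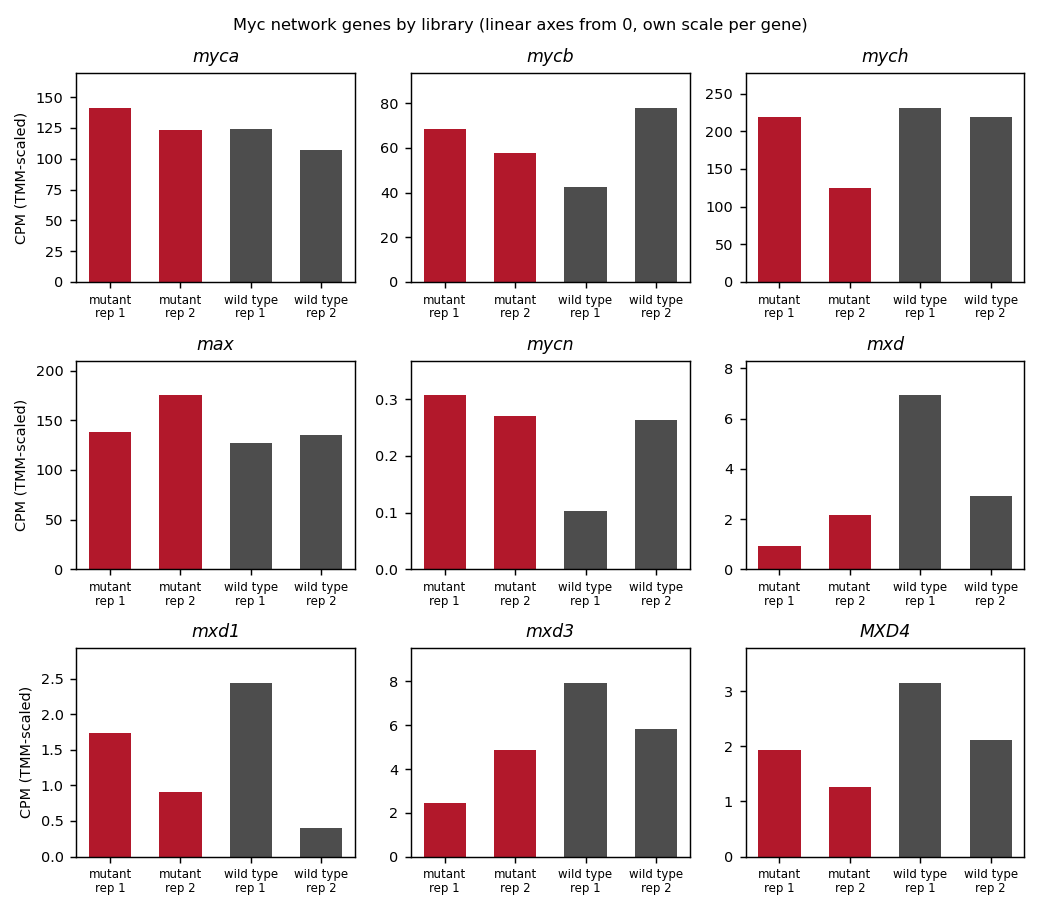
TMM-scaled CPM (vertical axes, from 0, own scale for each gene) of the 9 genes placed in the Myc network, mxd by letters only. Each library is shown, mutants in red and wild types in grey. mxd, mxd3 and MXD4 are lower in both mutants than in either wild type, mych is low in mutant replicate 2 only, and myca and mycb overlap between genotypes.

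Among 17 other tested genes of the Myc network, 6 had a positive log2 fold change, the median was -0.22, and none was beyond the fold threshold with an adjusted p under 0.05. By the adjusted p 0 were higher and 1 lower, against 2.98% and 2.95% of all tested genes. The lower gene was mycl1b, a Myc family gene named after its values were seen. It had 23.9 and 18.5 CPM in the mutants against 34.3 and 43.0 CPM in wild type (-0.87 ± 0.22, adjusted p = 0.0126, edgeR). Its adjusted p was 0.0872 without the block (edgeR) and 0.254 in DESeq2. Both mutants were below both wild types for 7 of 17 and above for 1, against 21.7% and 23.1% of all tested genes. A list of 40 tested genes widely given as Myc targets outside the nucleolus had 36 positive, a median of 0.29, and 3 called higher and 2 lower, against 1.8% and 1.9% of all tested genes. Without wild-type replicate 1 the median was 0.18 with 29 positive, and with mutant replicate 2 left out it was 0.19 with 28 positive. ldha, lactate dehydrogenase A, rose most, with 173 and 334 CPM in the mutants against 53.5 and 88.9 CPM in wild type (1.80 ± 0.24, adjusted p = 2.85e-06, edgeR). hk2, the first enzyme of glycolysis, had 65.9 and 111 CPM in the mutants against 33.2 and 42.9 CPM in wild type (1.18 ± 0.21, adjusted p = 0.000277, edgeR). These glycolytic genes did not overlap between genotypes, and both are also known targets of other factors. impdh1a, an enzyme of guanine nucleotide synthesis, had 5.01 and 9.12 CPM in the mutants against 2.65 and 3.04 CPM in wild type (1.26 ± 0.36, adjusted p = 0.0290, edgeR), a call that was lost without the block and in DESeq2 (adjusted p = 0.148 and 0.558). tert, the catalytic subunit of telomerase, fell, with 13.9 and 13.2 CPM in the mutants against 40.7 and 62.2 CPM in wild type (-1.89 ± 0.22, adjusted p = 4.87e-07, edgeR). ccnd2a, a D-type cyclin, fell as well, with 15.7 and 6.32 CPM in the mutants against 34.2 and 17.6 CPM in wild type (-1.29 ± 0.23, adjusted p = 0.000446, edgeR). Replicates with the same number were both high or both low for ccnd2a, and mutant replicate 1 came close to wild-type replicate 2, so without the block its adjusted p was 0.162 (edgeR). Its other copy, ccnd2b, named after its values were seen, went the other way by the adjusted p, with 13.8 and 18.3 CPM in the mutants against 9.88 and 7.26 CPM in wild type (0.90 ± 0.27, adjusted p = 0.0386, edgeR). For ccnd2b the adjusted p was 0.153 without the block (edgeR) and 0.543 in DESeq2.

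The sorted cells also differed in the markers of other cell types and of the cell cycle, and the part of these differences in the ribosome assembly values was not tested. Of 20 mitosis genes, 19 were lower in the mutants by the adjusted p, where 2.95% of all tested genes were, with summed levels of 1093 and 1188 CPM in the mutants against 2097 and 2150.5 CPM in wild type. Red cell markers summed to 23135 and 17544 CPM in the mutants and 42719 and 67092 CPM in wild type, with 5 of 12 lower, and B cell markers to 299.8 and 225 CPM in the mutants and 488 and 446 CPM in wild type, with 7 of 9 lower. Neutrophil markers summed to 3838 and 7586 CPM in the mutants and 4280 and 2898 CPM in wild type, with 2 of 9 higher, where 2.98% of all tested genes were. Without the replicate block edgeR called 8 of the mitosis, 2 of the red cell, 5 of the B cell and 0 of the neutrophil genes in these directions, and DESeq2 called 10, 6, 5 and 0. None of these 4 groups had a marker at 0 in all libraries. Macrophage markers went both ways, with 3 of 20 higher and 6 lower by the adjusted p, and 2 of 22 were at 0 in all libraries. For these, edgeR without the block and DESeq2 each called 2 higher and 2 lower. By the adjusted p 1 of 6 thrombocyte markers was higher, and 0 were in edgeR without the block or in DESeq2. T and NK cell and kidney tubule markers gave 0 calls. Of 10 kidney tubule markers 7 passed the filter on low counts, and 6 of these 7 were positive (median 1.11). The genotypes overlapped in all 7, and the summed levels were not higher in the mutants. Those sums were 394.5 and 186.6 CPM in the mutants against 424.9 and 311.3 CPM in wild type. The other cell cycle list, of 10 genes for G0 and S phase, did not share the fall of the mitosis genes. In it 6 of 10 were positive (median log2 fold change 0.16), with 0 higher and 1 lower by the adjusted p. In edgeR without the block and in DESeq2, 0 of the 10 were called. The assembly genes were positive in 54 of 60 while the mitosis genes were positive in 0 of 20, and what lies behind these opposite signs was not tested.

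The remaining 5 genes, like mxd, matched by letters only and have other known roles. MYCBP, which encodes a binding partner of MYC, had 29.0 and 28.1 CPM in the mutants and 29.4 and 28.5 CPM in wild type (95% interval of the fold 0.734 to 1.32). mycbp2, a large ubiquitin ligase of neurons and other cells, had 79.0 and 71.4 CPM in the mutants and 108 and 90.7 CPM in wild type (-0.40 ± 0.21, adjusted p = 0.332, edgeR), with both mutants below both wild types. The other 3, the NOL4 copies and mycbpap, had log2 fold changes of -0.58 to -1.30, none past edgeR's test on all 4 libraries. NOL4 (2 of 2) had 8 and 0 reads in the mutants and 14 and 2 reads in wild type, the only gene of the 74 with a library at 0.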

How the data were processed

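RNA was isolated from sorted kidney marrow progenitors, and poly(A)-enriched libraries were sequenced with single-end reads. Read quality was checked by the authors (FastQC 0.10.1), who used STAR 2.3.0 for alignment and counted reads per gene with bedtools 2.16.1 on the Ensembl zebrafish transcriptome (Zv9). The deposited values are whole-number read counts per gene, not normalised. How strand and reads with several matches were treated is not stated in what was read here. The split of reads between gene copies (npm1a and npm1b, myca and mycb, ubtf and ubtfl) is uncertain to that extent.

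Members were matched by symbol, and 62 of the 74 had a current symbol in the name table used. Members and lists were chosen with earlier results of these data known. Named genes were the whole Myc network, every called member, the 2 most abundant and the extreme members of each role group, the classical nucleolar and polymerase I genes, and genes of other lists called beyond the fold threshold.

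Counts were fitted in R 4.3.3 with edgeR 4.0.16 (limma 3.58.1) for genes with more than 5 reads in sum, TMM scaling, genotype plus replicate block, a two-sided quasi-likelihood F-test and Benjamini-Hochberg adjustment over all 17242 genes. The block was used because the study's own design had a term for variation between replicates. Each SE was derived from the log2 fold change and its F value. The fit left 1 residual degree of freedom beside the spread shared across genes. With 2 against 2 libraries an exact permutation test of a single value cannot go below p = 0.333, so none was used. Totals were 8838603 to 10710913 reads, and over the TMM-scaled library sizes a floor of 3 reads was 0.271 to 0.396 CPM, which covers counting error only. DESeq2 1.42.0, no replicate block, bias-adjusted and robust fits, other scalings and filters and leave-one-out fits were alternatives. The procedure was tested on simulated data. No sequence is shown and no coordinates are given.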

Additional observations from a re-analysis of the deposited data

How the results depend on the processing

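The signs of the medians of all 74 genes and of the 60 ribosome assembly genes were kept under all 13 alternatives, and calls were not. Without the replicate block 258 genes were called over the whole table, against 639 with it, and 0 of the 74 in either direction. The count was 223 in DESeq2, 197 in the bias-adjusted fit, 235 with scaling without globin genes, and 412 to 940 with 1 library left out. rrs1, the 1 gene higher by the adjusted p, was not called (0) without the replicate block, in DESeq2, in the bias-adjusted fit, or with RLE, globin-free or library total scaling. mxd, the 1 gene lower by either rule, was not called (0) in these fits, in the robust fit or with edgeR's filterByExpr. With 1 library left out, the median log2 fold change of the 74 genes was 0.10 to 0.43, and that of the assembly genes was 0.13 to 0.44. Those fits carry no block, and the lone library of a genotype is assumed to vary like the others. Under library totals 63 of the 74 genes had a positive log2 fold change, against 59 in the main fit. For the genes named with values, the log2 fold change turned sign without the block for mxd1 (-0.16), and under library totals for UTP14C (0.071) and MYCBP (0.10). Among the genes named with values, it ranged across 0 with 1 library left out for NOL4 (2 of 2) (-6.08 to 0.55), RRP8 (-0.21 to 0.30), TCOF1 (1 of 2) (-0.14 to 1.02), UTP14C (-0.18 to 0.040), ddx21 (-0.51 to 0.036), mxd1 (-0.90 to 1.68), mycb (-0.33 to 0.56), polr1e (-0.28 to 0.49) and ubtf (-0.033 to 0.42). The cause was not tested, and all of these genes had an adjusted p over 0.6. The libraries share only a replicate number, and the correlation of same-numbered deviations was 0.0663 over all tested genes (2 pairs). That value covers all genes and cannot tell whether a pairing lies behind the calls made only with the block. Among those calls, same-numbered replicates of ccnd2a were both high or both low. Genes with few reads, such as mycn, mxd1 and both TCOF1 copies, are limited by depth.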

Other observations

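Nucleolar damage is known to stabilise p53, so a list of p53 target genes was read beside the ribosome assembly genes, as values only. Of 29 tested targets, 15 had a positive log2 fold change and the median was 0.00. One was called higher and 0 lower beyond the fold threshold with an adjusted p under 0.05 (edgeR), against 1.8% and 1.9% of all tested genes. CASP8 (3 of 4), a copy of the initiator caspase of the death receptor pathway, had 28.6 and 41.6 CPM in the mutants against 15.2 and 16.0 CPM in wild type (1.15 ± 0.22, adjusted p = 0.000841, edgeR). Both mutants were above both wild types, and the adjusted p was 0.0351 without the replicate block (edgeR) and 0.0549 in DESeq2.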
